A study of Mus musculus with 5 samples.

Results

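Prg4-high cells of the library taken 5 days after polytrauma (d5 post-polytrauma) were described at the level of single genes. A cell was counted as Prg4-high when at least 10 of every 10000 of its unique molecular identifiers (UMIs, each a counted mRNA molecule) came from Prg4, and when it had 350 to 8000 detected genes, under 20% of UMIs on mitochondrial genes, at least 5000 UMIs and a barcode not found in the library labelled d3 post-polytrauma. This rule gave 676 cells of the 10839 cells within the same limits (6.24%, exact 95% interval 5.79 to 6.71), in a series of 34439 barcodes. They were set beside the 5396 cells of the same library and limits with 0 UMIs of Prg4 (Prg4-zero cells). The other 4767 cells held at least 1 UMI of Prg4 and stayed below the threshold.

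All 5 libraries were made from GFP+ cells sorted from skeletal muscle of Prx1Cre;mTmG mice on a C57Bl/6 background, 10 to 14 weeks old, with 2 mice pooled per library and 1 library per condition. The conditions were d0 (uninjured), d3 and d5 after a non-stabilized fracture of the tibia, and d3 and d5 after polytrauma, in which injury by compression of the muscles around the tibia is added to the fracture. In these mice Cre is driven by Prx1 regulatory sequence, active in limb mesenchyme, and GFP stays on in every descendant of a cell that once expressed Cre. GFP thus marks a lineage and not a cell type, and muscle was dissected with tendons and fat removed and without periosteum and bone marrow. The library of d5 post-polytrauma held 204474562 UMIs in 13641 barcodes, and its 10839 cells within the limits had a median of 16761 UMIs. With 1 library per condition no value has a replicate, nothing was tested, no p-value is given, and every interval covers counting error only.

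Some features of the libraries bear on these cells. Of the barcodes of d5 post-polytrauma, 944 were also present in the library labelled d3 post-polytrauma, and the rule left them out. With those barcodes kept, 11 more cells came within the limits and none was Prg4-high. At most 3 barcodes were shared with each other library, and without those the set still held 676 cells. The libraries of d0, d3 post-fracture and that labelled d5 post-fracture shared 405 to 525 barcodes with each other, and their values are given below with and without them. The libraries labelled d5 post-fracture and d3 post-polytrauma held 6915 and 2001 barcodes. Cell numbers in the study's source data run the other way round, so both libraries are named here by their deposited labels and those labels are in doubt. Col2a1, a cartilage collagen whose cells the study places at d5 post-fracture, goes against the labels too. It was at 0.108 CPM in the library labelled d5 post-fracture and 1527 CPM in that labelled d3 post-polytrauma, against 0.867 CPM at d3 post-fracture and 72.8 CPM at d5 post-polytrauma. No comparison by injury is drawn from either library. In d5 post-polytrauma 80.5% of the cells within the limits had UMIs of Y-linked genes and none of Xist, and only 3 cells had Xist alone. In the other 4 libraries 96.9 to 99.0% of cells had Xist alone. The sex of the mice and the condition thus cannot be told apart between d5 post-polytrauma and those libraries.

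Prg4 encodes lubricin, a large mucin-like glycoprotein that is secreted onto the surfaces of joints, tendons and tendon sheaths, where it lowers friction and adhesion. In joints it is made by superficial chondrocytes and by lining fibroblasts of the synovium. In tendon it is made at the surface and in the sheath. The gene (ENSMUSG00000006014) lies on the minus strand of chromosome 1 from 150449412 to 150466165 in GRCm38.

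The rule used the level of Prg4 itself, which is therefore a description of the set and not a result. Prg4 made up 10.0 to 163 UMIs per 10000 in the 676 cells, with a median of 17.8 and quartiles of 12.8 and 27.7. These cells held 6 to 288 UMIs of Prg4 each, with a median of 36, and together they held 60.1% of the Prg4 UMIs of the cells within the limits. The level showed no gap at the threshold. The lowest levels inside were 10.0085, 10.0167 and 10.0186 per 10000 and the highest outside were 9.976, 9.975 and 9.954, with 181 cells from 8 to under 10 and 154 cells from 10 to under 12.5. Prg4-high is thus a cut through a continuous level. Levels near the cut cannot show whether the set holds a separate class of cells, and this was not tested.

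Depth, cell division and doublet scores differed with the set. Prg4-high cells had a median of 19913 UMIs and 4229 genes, and Prg4-zero cells 14678.5 UMIs and 3605.5 genes. The median share of mitochondrial UMIs was 3.11% against 3.45%. After each cell was thinned to 5000 UMIs, 38.5% of Prg4-high cells and 27.6% of Prg4-zero cells had at least 2 of Mki67, Top2a, Cdk1, Ccnb1 and Birc5. The cells with the highest doublet scores made up 11.2% of Prg4-high and 8.06% of Prg4-zero cells. With those cells left out, 87 of the 87 genes called higher below and 108 of the 108 called lower kept their calls. Without dividing cells 76 and 96 of them did, and with all cells thinned to 5000 UMIs 76 and 100 did.

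Free RNA in the droplets was judged from cells that should lack Prg4. In the 36 cells of this library with at least 5 UMIs of hematopoietic genes, 4 (11.1%) had a UMI of Prg4, at a median depth of 6706 UMIs, against 50.2% of all cells within the limits at their full depth and 32.6% of them after thinning to 5000 UMIs. Those 36 cells held 47 UMIs of Prg4, or 128 CPM, where CPM is the UMIs of a gene per 1000000 summed UMIs. All 47 lay in the 4 cells, so 128 CPM is not a level spread over the 36, and the source of these UMIs was not tested. The 36 cells were taken without the limit of 5000 UMIs and with shared barcodes kept. The 16 cells of the hematopoietic-like cluster described below had 31.7 CPM of Prg4. The mean of the Prg4-high cells was 2402 CPM, and none of those 16 cells was Prg4-high (exact interval up to 20.6%).

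The name of the set was checked against markers of the cells known to make lubricin. Of the 8 markers of synovial lining fibroblasts other than Prg4, 3 had a mean of at least 10 CPM over the 2 sets (Hbegf, Vcam1 and Has1). Clic5, Tspan15, Htra4, Cd55 and Col22a1 were below that mean. Clic5 had 0 UMIs in Prg4-high cells (exact interval up to 0.261 CPM), Tspan15 had 0.0708 CPM, Htra4 0.779 CPM and Cd55 4.32 CPM. Vcam1 and Has1, which lining cells share with many fibroblasts, were at 78.9 and 158 CPM in Prg4-high cells and 105 and 145 CPM in Prg4-zero cells. Hbegf, an EGF-family growth factor, was at 220 against 109 CPM. Of the joint surface and interzone genes, Gdf5 and Erg were at 0.496 and 0.283 CPM in Prg4-high cells. They were at 0.310 and 0.793 CPM in Prg4-zero cells. The joint surface genes Abi3bp, Cilp and Creb5 were at 289 against 88.5, 281 against 162 and 85.7 against 81.4 CPM. Wnt9a and Vit, also of the joint surface and interzone list, had a mean under 10 CPM, and Osr1 and Osr2 were at least 2-fold lower. Both lists were thus mixed. Clic5, Tspan15, Htra4, Gdf5 and Erg were at or near 0, while Hbegf and Abi3bp were at least 2-fold higher.

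Listed markers of other lineages were low in both sets. The globin gene Hbb-bs, of red blood cells and in no list, was at 77.1 CPM in Prg4-high and 50.7 CPM in Prg4-zero cells and found in 2.07% and 1.33% of thinned cells. With Prg4-zero cells weighted by cluster it was at 77.1 against 29.9 CPM, a log2 ratio of 1.34, and its part in the results was not tested. The 8 hematopoietic markers summed to 5.31 CPM in Prg4-high and 35.6 CPM in Prg4-zero cells, with Itgam at 0 and Csf1r most abundant at 1.56 CPM in Prg4-high cells. The 5 endothelial markers summed to 1.63 against 3.28 CPM, the 6 myogenic markers to 0.425 against 1.14 CPM with Pax7, Myod1, Myf5 and Myog at 0, and the 4 Schwann cell markers to 1.06 against 1.72 CPM with Sox10 at 0. Of the adipocyte markers only Lpl, a lipoprotein lipase also found in fibroblasts, passed 10 CPM, at 12.4 against 35.2 CPM. The mesenchymal genes of the FAP/MP list (fibro-adipogenic and mesenchymal progenitors) were present in both sets. Prrx1 was at 252 against 299 CPM, Pdgfra at 71.8 against 77.6 CPM, Cxcl12 at 193 against 350 CPM and Ly6a at 482 against 276 CPM. Cd34, a surface marker of these progenitors, was the member of the list past 2-fold, at 79.6 CPM in Prg4-high and 31.2 CPM in Prg4-zero cells.

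Gene levels were compared as CPM of UMIs summed over each set. A ratio is given on the log2 scale after 1 CPM was added to both values, which understates the change of low genes. Prg4-high cells differed from Prg4-zero cells in a small share of genes. Of 7590 genes with a mean of at least 10 CPM, 87 were at least 2-fold higher (1.15%) and 108 at least 2-fold lower (1.42%). The median log2 ratio over these genes was 0.02, and 74.4% of them lay within 1.2-fold. Of all genes compared, 53.5% had a ratio above 0 and 46.5% below 0. Since the cells were chosen by a gene measured in the same cells, these counts describe the set and test nothing. The 20 genes with the largest and the 15 with the smallest ratio among genes of at least 50 CPM were followed through the comparisons below, and all but 1 of them are named, with members of gene lists.

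**Figure D1:**
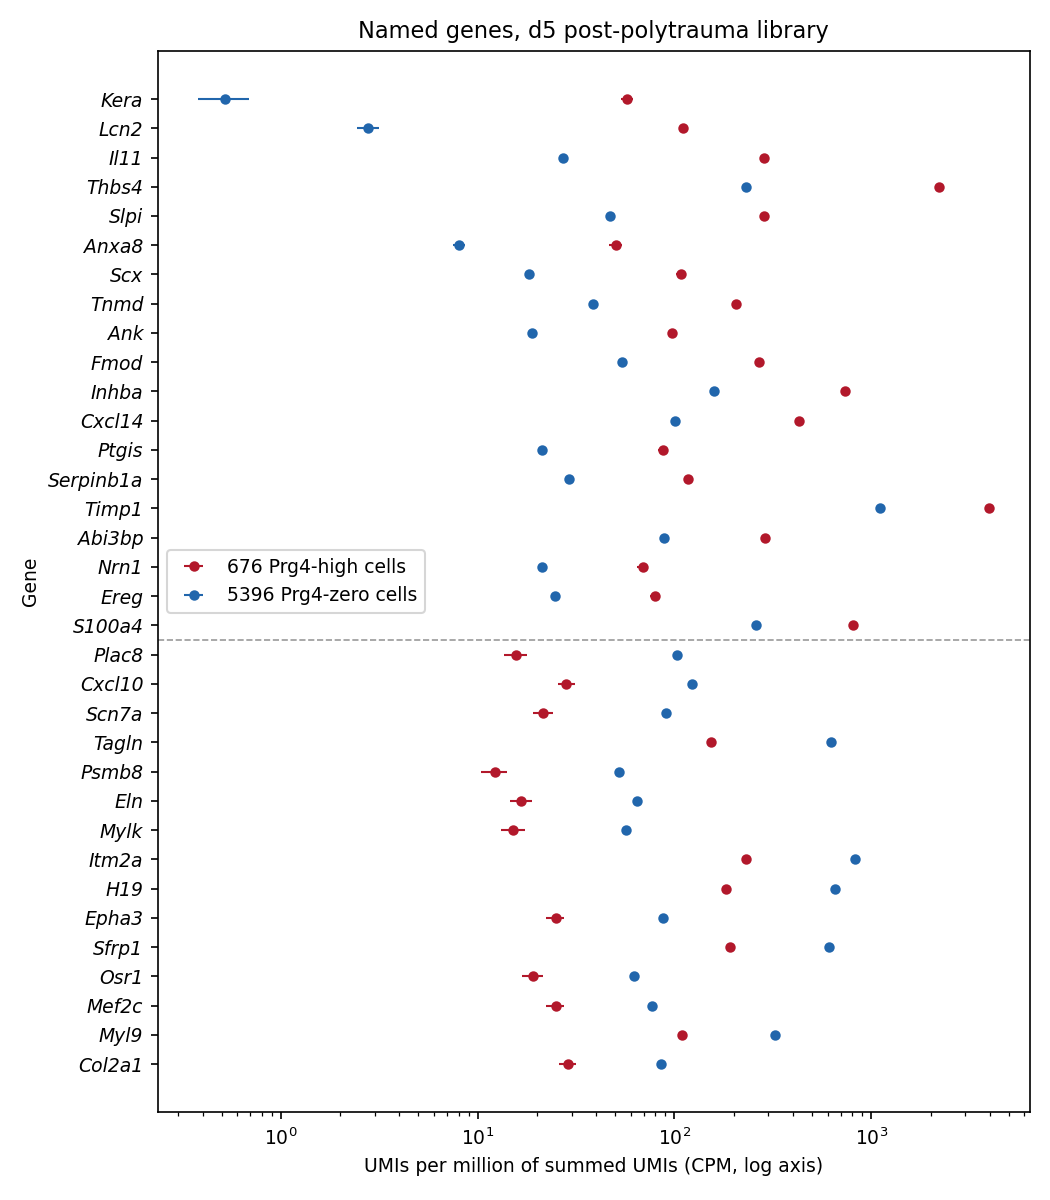
Levels of 19 of the 20 genes highest and of the 15 lowest in Prg4-high over Prg4-zero cells of d5 post-polytrauma. The x axis is CPM on a log scale, red points are the 676 Prg4-high cells, blue points the 5396 Prg4-zero cells, and bars are exact Poisson 95% intervals, which cover counting error only. Kera stands at 57.4 against 0.517 CPM at the top and Plac8 at 15.7 against 103 CPM leads the lower genes.

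Among the gene lists, those of tendon had the highest medians. By single gene, Lcn2 and Il11, of neither tendon list, had ratios above that of Thbs4. Of the 9 measured genes of the tendon and tendon sheath list, 6 were at least 2-fold higher and none lower, with a median log2 ratio of 2.37, and all 3 genes of the tenocyte list were higher, with a median of 2.49. Kera (ENSMUSG00000019932, chromosome 10 from 97606879 to 97613692) encodes keratocan, a small leucine-rich proteoglycan of cornea and tendon. It was at 57.4 CPM (53.6 to 61.5) in Prg4-high and 0.517 CPM (0.377 to 0.692) in Prg4-zero cells, a log2 ratio of 5.27. After thinning, 16.0% of Prg4-high and 0.185% of Prg4-zero cells had a UMI of Kera. Kera was thus close to absent from cells without Prg4, and yet most Prg4-high cells had none.

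Thbs4 (ENSMUSG00000021702, chromosome 13 from 92751590 to 92794818) encodes thrombospondin 4, an adhesive matrix protein of tendon and of muscle attachment sites. It was at 2203 CPM (2178 to 2227) against 230 CPM (227 to 233), a log2 ratio of 3.25. Per cell, Thbs4 had a median of 16.5 UMIs per 10000 in Prg4-high cells, with quartiles of 1.28 and 37.7, and a median of 0.550 in Prg4-zero cells. The ranges overlapped, since 17.0% of Prg4-high cells had no Thbs4 and the highest Prg4-zero cell had 94.2 per 10000.

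Scx (ENSMUSG00000034161, chromosome 15 from 76457452 to 76459458) encodes scleraxis, the transcription factor of tendon progenitors, and was at 108 against 18.3 CPM, a log2 ratio of 2.49. Tnmd (ENSMUSG00000031250, chromosome X from 133850980 to 133865577) encodes tenomodulin, a membrane protein of mature tenocytes, and was at 206 against 38.5 CPM, a log2 ratio of 2.39. Mkx, which encodes the tendon homeobox factor mohawk, was at 19.1 against 2.88 CPM, a log2 ratio of 2.37. Fmod, which encodes the collagen-binding proteoglycan fibromodulin, was at 268 against 54.3 CPM, a log2 ratio of 2.28. The transcription factors and the structural genes of tendon were therefore both in the higher group. Comp, Col12a1 and Tppp3 stayed under 2-fold at 142 against 88.7, 580 against 473 and 43.1 against 27.2 CPM. Tppp3 is a marker of the tendon sheath, and it was detected in 12.4% of Prg4-high and 10.6% of Prg4-zero cells after thinning.

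Tendon genes did not mark all members. With the thinned counts, 153 Prg4-high cells (22.6%, 19.5 to 26.0) had at least 2 of Scx, Tnmd and Kera, 158 (23.4%) had 1 and 365 (54.0%, 50.2 to 57.8) had none. In Prg4-zero cells 108 (2.00%, 1.64 to 2.41) had at least 2. Seen from the tendon side, 153 of the 575 cells with at least 2 of these genes were Prg4-high (26.6%, 23.0 to 30.4). The larger number of Prg4-high cells thus showed none of the 3 tendon genes at this depth.

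Single genes for secreted signals were among the higher genes, while the medians of the signal lists lay between -0.12 and 0.31. Il11 (ENSMUSG00000004371, chromosome 7 from 4772373 to 4782859) encodes interleukin 11, a cytokine that fibroblasts release in response to injury and TGF-beta. It was at 286 CPM (277 to 295) in Prg4-high and 27.2 CPM (26.1 to 28.3) in Prg4-zero cells, a log2 ratio of 3.35. Its UMIs were unevenly spread, since 63.0% of Prg4-high cells had none while the highest had 85.5 per 10000. Among the 14 measured chemokines and cytokines, 4 were at least 2-fold higher (Il11, Cxcl14, Il33 and Lif), 1 was lower (Cxcl10) and the median log2 ratio was -0.12. Cxcl14, a chemokine of stromal cells, was at 429 against 100 CPM, Il33, an alarmin of stromal nuclei, at 100 against 32.9 CPM, and Lif, of the same cytokine family as Il11, at 38.7 against 17.1 CPM. Cxcl1, a chemokine for neutrophils and the most abundant of the list, was at 887 against 993 CPM. The higher cytokine genes were thus single members and not the list as a group.

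In the TGF-beta list 3 of 15 measured genes were higher and 1 lower, with a median log2 ratio of 0.31. Inhba, which encodes the subunit of activin A, was at 732 CPM (718 to 747) against 159 CPM (156 to 161), a log2 ratio of 2.20. Fst, which encodes the activin antagonist follistatin, was at 46.4 against 105 CPM, a log2 ratio of -1.16. Ltbp2 and Ltbp4, of the latent TGF-beta binding protein family, were at 302 against 127 and 34.5 against 15.2 CPM. The 3 TGF-beta ligand genes stayed under 2-fold, with Tgfb1 at 73.4 against 56.1 CPM.

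Of 8 measured BMP genes only Bmp2, a bone morphogenetic protein, passed 2-fold, at 29.1 against 4.05 CPM and a log2 ratio of 2.58. The BMP target genes Id1 and Id3 were at 40.5 against 21.8 and 321 against 327 CPM, and the median of the list was 0.01. Of 5 measured Wnt genes Dkk2, an inhibitor of Wnt receptors, was higher at 23.5 against 6.74 CPM. The other secreted inhibitors Sfrp1 and Sfrp2 were lower, at 192 against 612 and 350 against 987 CPM, and the median of the list was 0.04. Igfbp6, which binds IGF2, was the only one of 8 measured FGF and IGF genes past 2-fold, at 197 against 63.5 CPM, with a list median of 0.19. Ereg encodes the EGF receptor ligand epiregulin and was at 79.5 against 24.7 CPM, a log2 ratio of 1.65. Ptgis, which encodes prostacyclin synthase, was the member of the prostaglandin list past 2-fold (5 measured, median 0.22), at 87.1 against 21.2 CPM. Ptgs2, the inducible cyclooxygenase, was at 500.0 against 261 CPM.

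Timp1, Slpi, Serpinb1a and Lcn2 were also among the named higher genes. Timp1, the tissue inhibitor of metalloproteinases, was at 3982 CPM (3949 to 4015) in Prg4-high and 1112 CPM (1105 to 1119) in Prg4-zero cells, a log2 ratio of 1.84. At full depth every Prg4-high cell and 97.6% of Prg4-zero cells had Timp1, with medians of 29.4 and 8.05 UMIs per 10000. Slpi, a secreted inhibitor of neutrophil elastase, was at 285 against 47.1 CPM, a log2 ratio of 2.57, and Serpinb1a, an intracellular inhibitor of neutrophil proteases, at 117 against 28.9 CPM, a log2 ratio of 1.98. Lcn2 (ENSMUSG00000026822, chromosome 2 from 32384633 to 32388252) encodes lipocalin 2, which binds bacterial siderophores. It was at 111 CPM (105 to 116) against 2.77 CPM (2.43 to 3.14), a log2 ratio of 4.89, and 14.5% of Prg4-high and 1.0% of Prg4-zero cells had it after thinning. At full depth these genes ranged from one present in every Prg4-high cell (Timp1) to one present in 21.15% of them (Lcn2). Of 15 measured metalloproteinases and inhibitors, 3 were higher (Timp1, Adamts1 and Adamts5) and none lower, with a median of 0.26. Adamts1 and Adamts5, which cut proteoglycans, were at 243 against 112 and 112 against 54.9 CPM, and Mmp2 was at 473 against 351 CPM.

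The bulk of the matrix was alike in both sets. Of the 20 most abundant genes of Prg4-high cells, none passed 2-fold. Col1a1 was at 8941 against 10163 CPM, Col1a2 at 9230 against 10252 CPM, Col3a1 at 8853 against 6793 CPM and Sparc at 7225 against 7346 CPM. Of 19 measured collagens none was higher and 2 were lower (Col14a1 at 58.8 against 164 CPM and Col15a1 at 7.72 against 22.8 CPM), with a median of 0.13. None of the 6 fibrogenic genes passed 2-fold (median -0.06), and Postn, which encodes periostin, a matrix protein of injured and fibrotic tissue, was at 1629 against 2782 CPM, a log2 ratio of -0.77. Of 9 measured small leucine-rich proteoglycans, 2 were higher (Fmod, and Dcn at 2238 against 1072 CPM), with a median of 0.02. Of 18 measured matricellular genes, Thbs4 was higher and the microfibril genes Mfap4 and Mfap5 were lower, at 84.2 against 238 and 303 against 658 CPM, with a median of 0.02. Lox, the enzyme that crosslinks collagen and elastin, was higher among 10 crosslinking genes, at 1476 against 701 CPM, with a median of 0.46. Abi3bp, a matrix protein listed here with joint surface genes, was at 289 against 88.5 CPM, a log2 ratio of 1.69. In that list (5 measured, median 0.07) the limb joint factors Osr1 and Osr2 were lower, at 19.1 against 62.6 and 10.2 against 31.3 CPM.

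The genes that add sugar to lubricin were at close levels in both sets. Lubricin carries mucin-type O-glycans, and none of the 8 measured O-glycosylation genes passed 2-fold in either direction (median 0.05), with Galnt1, the most abundant, at 65.9 against 62.0 CPM and C1galt1 at 24.6 against 24.2 CPM. None of the 8 measured genes of the hyaluronan matrix, the other lubricant of joints, passed 2-fold either (median 0.02), with Has1 at 158 against 145 CPM and Has2 at 144 against 154 CPM. Over all 7590 genes 1.15% were at least 2-fold higher and 1.42% lower, so none of 8 is near the share of all genes. Hyaluronan genes were called elsewhere, with 1 of 8 higher in cluster 2 (2.29% of all genes there) and 2 of 7 at d0 (5.46%). In cluster 7 of the clusters described below 1 of 8 was lower (2.98%).

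Ank, Enpp1 and Spp1 were higher and Ibsp was lower, of which Enpp1 was chosen after its values were seen. Ank, which exports pyrophosphate, was at 97.6 against 18.9 CPM, a log2 ratio of 2.31, and Enpp1, which makes extracellular pyrophosphate, at 162 against 59.8 CPM. Spp1, which encodes osteopontin, was at 1349 against 568 CPM, a log2 ratio of 1.25, and its highest Prg4-high cell had 922.5 UMIs per 10000. Ibsp, which encodes bone sialoprotein, was at 1 UMI in all Prg4-high cells (0.0708 CPM) and 2691 UMIs in Prg4-zero cells (30.9 CPM), with an exact interval of the log2 ratio, here without the added CPM, from -14.07 to -6.29. A few cells carry that level, since 98.9% of Prg4-zero cells had no Ibsp, 13 had at least 10 UMIs per 10000 and the highest had 439.5. Of the osteogenic list 3 genes were measured, with a median of 0.12, and Runx2, the factor of osteoblast commitment, was at 60.0 against 55.2 CPM. Bglap and Dmp1 had 0 UMIs in Prg4-high cells. Of 4 measured chondrocyte genes Acan, which encodes aggrecan, was higher at 136 against 65.4 CPM. Col2a1 and Hapln1, of cartilage matrix, were lower at 28.8 against 85.8 and 5.88 against 16.5 CPM, and the median was -0.92. Col2a1 was found in 2.37% of Prg4-high and 2.26% of Prg4-zero cells after thinning, so the difference lay in the level of few cells and not in the share with a UMI. Sox9, the factor of cartilage and tendon attachment, was at 93.4 against 132 CPM.

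Contractile genes were lower as a list at d5 post-polytrauma. Of 10 measured genes, 6 were at least 2-fold lower, none was higher, all 10 had a ratio below 0 and the median was -1.21. Acta2, which encodes smooth muscle actin and marks myofibroblasts, was at 557 against 1463 CPM, a log2 ratio of -1.39. Tagln (ENSMUSG00000032085, chromosome 9 from 45929619 to 45936058) encodes the actin-binding protein transgelin and was at 153 CPM (147 to 160) against 622 CPM (617 to 627), a log2 ratio of -2.02. Tagln was detected in 31.7% of Prg4-high and 63.1% of Prg4-zero cells after thinning. Myl9, a myosin light chain, was at 110 against 325 CPM, and Mylk, the kinase that activates myosin, at 15.2 against 57.0 CPM. Tpm1, Tpm2 and Cald1 stayed under 2-fold. The pericyte list, which shares Mylk, had 3 of 4 measured genes lower (Des, Mylk and Rgs5) and a median of -1.68. The actins differed among themselves, with Acta2 and Actg2 at least 2-fold lower and Actb at 5419 against 5694 CPM.

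Other lower genes came from several groups. Plac8 was at 15.7 CPM (13.7 to 17.9) against 103 CPM (101 to 105), the lowest of the named genes with a log2 ratio of -2.65. Cxcl10, an interferon-induced chemokine, and Psmb8, a subunit of the immunoproteasome, were at 28.2 against 123 and 12.2 against 51.9 CPM. Itm2a, a membrane protein of mesenchymal and muscle precursors, was at 231 against 830 CPM, and H19, an imprinted noncoding RNA of fetal and regenerating tissue, at 182 against 655 CPM. Eln, which encodes elastin, was at 16.6 against 64.7 CPM. The sodium channel gene Scn7a was at 21.5 against 90.5 CPM, the ephrin receptor gene Epha3 at 24.9 against 87.5 CPM and the transcription factor gene Mef2c at 24.9 against 77.3 CPM. Their log2 ratios lay between -2.09 and -1.60. Other named genes higher in the set were Anxa8 (50.2 against 8.05 CPM), a member of the annexins, Nrn1 (69.1 against 21.3 CPM), which encodes neuritin, and S100a4 (807 against 260 CPM), a calcium-binding protein of fibroblasts, with log2 ratios of 2.50, 1.65 and 1.63.

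Lists of general cell state differed less than the tendon and contractile lists, with medians between -0.71 and 0.55. In the glycolysis and hypoxia list 16 of 18 measured genes had a ratio above 0, with a median of 0.55, and Vegfa, a growth factor for vessels, passed 2-fold at 83.0 against 28.7 CPM. Gapdh was at 2576 against 1852 CPM and Pgk1 at 930 against 516 CPM. All 18 cell division genes had a ratio above 0 and none passed 2-fold, with a median of 0.39, and without dividing cells the median was -0.13. The list of CREB factors and immediate early genes had 13 of 17 genes below 0, none past 2-fold and a median of -0.27, with Fos at 1695 against 2225 CPM and Creb5, known as a factor upstream of Prg4 in joints, at 85.7 against 81.4 CPM. None of the 9 measured genes of the FoxO list, also known upstream of Prg4, passed 2-fold (median -0.18). No secretory chaperone passed 2-fold among 15 (median 0.11), and no target of YAP or mechanical load among 7 (median 0.21). Of 4 measured complement genes C1s1 was lower (median -0.71). Of 14 genes of coagulation and fibrinolysis Anxa8 was higher and F3 and Serpine2 lower (median 0.05). Of 12 integrins and adhesion receptors Cd9 was higher and Icam1 lower (median 0.08).

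Cells between the 2 sets were used to see whether levels followed Prg4 through its range. The band above 0 to under 1, defined next, held 56.9 CPM of Prg4. That lies between the 31.7 CPM of the hematopoietic-like cluster and the 128 CPM of the 36 cells with hematopoietic genes, whose Prg4 UMIs all lay in 4 cells. The part of free RNA in this band was not tested. The cells were placed in 5 bands of Prg4 per 10000 UMIs, with 5396 cells at 0, 1736 above 0 to under 1, 3031 at 1 to under 10, 626 at 10 to under 50 and 50 at 50 and over. Thbs4 was at 230, 235, 594, 2017 and 4575 CPM over these bands in order. Il11 was at 27.2, 51.4, 103, 256 and 665 CPM. Of the 20 named higher genes, which were chosen by the difference between the lowest and the top bands, 18 were higher in each band than in the one before, as were 8.42% of the 7590 genes. The exceptions were Fmod and Abi3bp, which dipped from the lowest band to the next. Ank was at 18.9, 22.6, 29.7, 75.2 and 385 CPM, so its largest step lay between the top bands. Tnmd instead levelled off, at 38.5, 46.9, 119, 204 and 226 CPM.

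Of the 15 named lower genes, chosen in the same way, 12 were lower in each band than in the one before, as were 9.2% of the 7590 genes. Tagln was at 622, 490, 328, 156 and 112 CPM and Itm2a at 830, 684, 589, 243 and 71.3 CPM. The exceptions were Eln, Epha3 and Col2a1. Acta2, of the contractile list, was at 1463, 1290, 1018, 580 and 264 CPM. Col1a1 was at 10163, 8936, 9743, 9026 and 7860 CPM. Col1a1 had no such order. Part of these orders was fixed by the choice of genes. Depth differed between the bands, with medians of 14678.5, 20601.5, 17875, 19951.5 and 19592.5 UMIs, and its part in these levels was not tested.

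**Figure D2:**
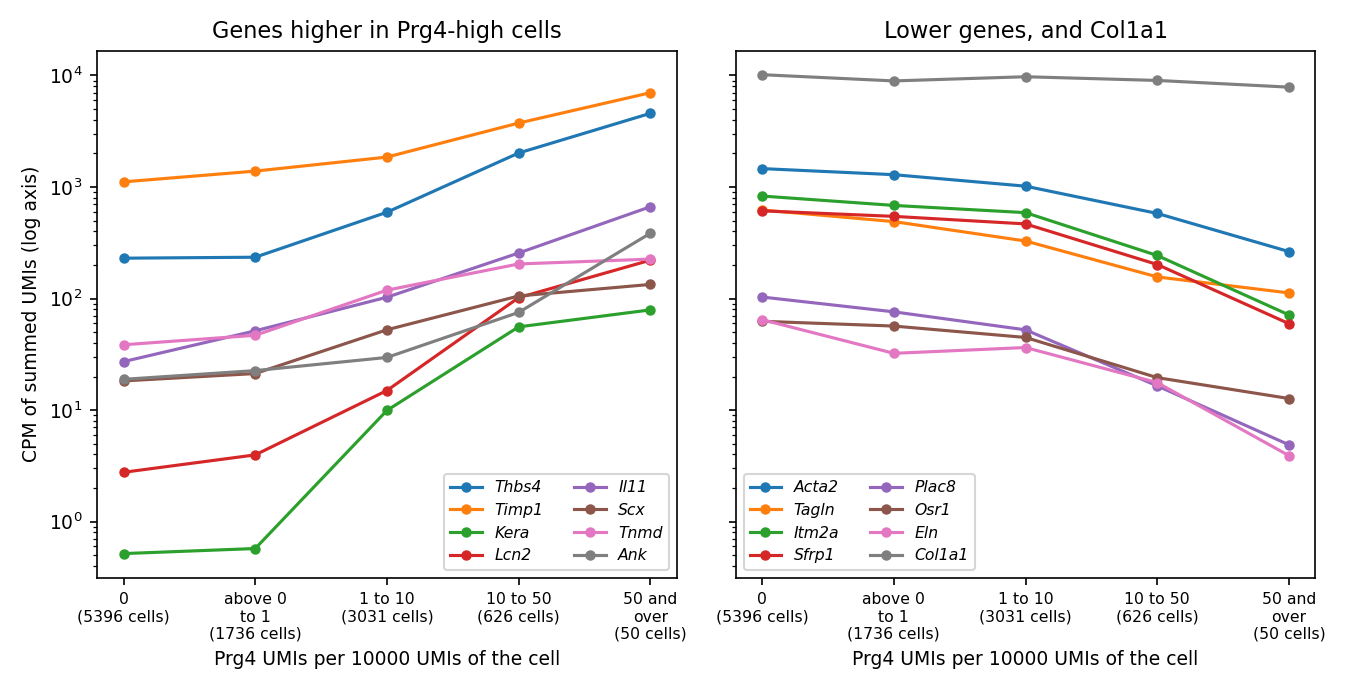
CPM on a log axis against the level of Prg4 in 5 bands of cells of d5 post-polytrauma, with the number of cells under each band. The left panel shows 8 genes higher in Prg4-high cells, such as Thbs4 from 230 to 4575 CPM, and the right panel 7 lower genes, such as Acta2 from 1463 to 264 CPM, with Col1a1 between 7860 and 10163 CPM for comparison.

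Clusters were computed from the same cells without Prg4 among the genes used, to see which cells the set came from. Prg4-high cells were found in 10 of 11 clusters. The tenocyte-like cluster (cluster 3), led by Kera, Tnmd, Lcn2, Thbs4 and Scx, with the globin gene Hbb-bs also among its leading genes, held 259 of them, 35.9% of its 721 cells (32.4 to 39.5) and 38.3% of the set. Cluster 5, led by Ibsp, Anxa8, Bmp2 and Ank, held 124 (16.1% of its 770 cells, 13.6 to 18.9). Those 124 cells had 0 UMIs of Ibsp, and the 201 Prg4-zero cells of cluster 5 had 1200. Cluster 2, led by Ankrd1, Krt19, Ereg and hypoxia genes such as Egln3, held 70 (9.07% of 772, 7.14 to 11.3). Cluster 0, led by genes of cell division, held 163 (5.15% of 3163, 4.41 to 5.98). Cluster 7, led by Pi16 and C3, held 34 (2.56% of 1328). The 2172 cells of cluster 1 (Dlk1 and Meox1) and the 1664 cells of cluster 4 (Penk, Cxcl10 and other interferon genes) held 12 and 5. The chondrocyte-like and pericyte-like clusters held 2 each, of 73 and 86 cells. The leading genes of clusters are not results, and the genes in which the set differs also shaped the clusters. At a resolution of 0.3 the tenocyte-like cluster held 127 Prg4-high cells and at 0.8 it held 258.

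**Figure D3:**
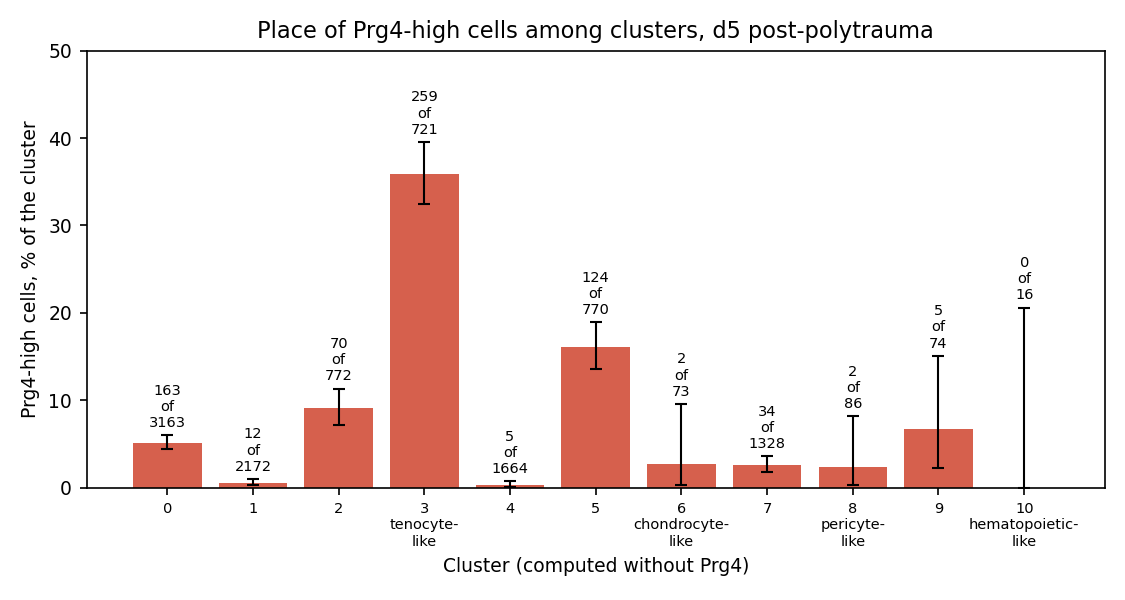
Share of Prg4-high cells in each of 11 clusters of d5 post-polytrauma in percent, with exact 95% intervals and the number of Prg4-high cells of all cells above each bar. The tenocyte-like cluster stands at 35.9% and cluster 5 at 16.1%, while clusters 1 and 4 stand at 0.552% and 0.30%.

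To compare cells of like expression, the named genes were read within the 5 clusters with at least 20 cells of both sets. These genes were chosen by their ratios in the same cells, so their counts within clusters partly restate that choice. In clusters 0, 2, 3, 5 and 7, 18, 16, 15, 13 and 11 of the 20 higher genes were at least 2-fold higher, where 0.858, 2.29, 2.98, 0.738 and 3.89% of all measured genes were. Of the 15 lower genes 13, 8, 10, 10 and 6 were at least 2-fold lower, against 1.15, 2.43, 2.2, 1.11 and 2.98% of all genes. Kera, Lcn2, Thbs4, Anxa8, Cxcl14 and Timp1 were at least 2-fold higher in all 5 clusters, and Tagln and Myl9 at least 2-fold lower in all 5. Some of these ratios rest on few UMIs, with 7 against 2 of Kera in cluster 2 and 5 against 0 of Lcn2 in cluster 5. Other named genes were past 2-fold in the opposite direction. Slpi was at 42.9 against 224 CPM and Il11 at 1.95 against 6.78 CPM in cluster 7, the latter from 1 against 59 UMIs. In cluster 2 Fmod was at 3.19 against 25.2 CPM and H19 at 319 against 133 CPM. Timp1 had the narrowest range, with log2 ratios from 1.23 to 1.66. Thbs4 was at 2031 against 32.6 CPM in cluster 2 and at 4051 against 1391 CPM in the tenocyte-like cluster. Above 0 were 19, 18, 19, 19 and 16 of the 20, where 54, 40.1, 47.4, 51.3 and 56.2% of all genes were, and below 0 were 15, 13, 14, 15 and 12 of the 15, where 46, 59.9, 52.6, 48.7 and 43.8% were. Contractile genes had medians of -0.95, -1.57, -1.22, -1.08 and -0.60 in the 5 clusters.

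Within the tenocyte-like cluster 4 of 9 measured tendon and tendon sheath genes were at least 2-fold higher and 1 was lower, with a median of 0.38. Tnmd was there at 493 CPM in the 259 Prg4-high and 707 CPM in the 61 Prg4-zero cells, a log2 ratio of -0.52, and Scx was at 211 against 167 CPM, a log2 ratio of 0.33. Kera was higher, at 143 against 23.2 CPM, as were Comp, at 264 against 73.4 CPM, and Fmod, at 444 against 212 CPM, while Tppp3 was lower, at 16.1 against 41.2 CPM. Lcn2 was also higher there, at 262 against 2.58 CPM, a log2 ratio of 6.20 from 1253 against 2 UMIs. Cxcl14 was at 711 against 42.5 CPM, a log2 ratio of 4.03 from 3399 against 33 UMIs. In the same cluster the cell division list had 10 of 15 genes at least 2-fold higher, as it had 12 of 14 in cluster 7, and the median depth in the tenocyte-like cluster was 17497 UMIs in Prg4-high and 11760 UMIs in Prg4-zero cells. In cluster 5, Scx and Tnmd had log2 ratios of -0.06 and 0.09. In the tenocyte-like cluster the Prg4-high cells thus held no more Tnmd than the Prg4-zero cells. Tnmd is itself among the leading genes of that cluster, and its cells between the 2 sets were not read.

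Clusters also differed in which genes their Prg4-high cells carried. Il11 was at 657 CPM in those of cluster 2, 567 CPM in cluster 5, 239 CPM in cluster 0, 104 CPM in the tenocyte-like cluster and 1.95 CPM in the 34 of cluster 7. In cluster 7 the Prg4-zero cells had 6.78 CPM of Il11, so the gene was low in both sets there. Lcn2 was at 100, 262 and 146 CPM in the Prg4-high cells of clusters 2, 3 and 7 and at 7.48 and 1.96 CPM in those of clusters 0 and 5. Ank was at 109 and 288 CPM in those of clusters 0 and 5 and between 17.5 and 26.1 CPM in the other clusters. Il11 and Ank were thus both high in clusters 0 and 5, and Il11 and Lcn2 both in cluster 2.

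When the Prg4-zero cells were weighted to the cluster shares of the Prg4-high cells, 49 genes were at least 2-fold higher (0.649%) and 47 lower (0.622%), of which 41 and 37 were among the calls of the unweighted comparison. The weight of the tenocyte-like cluster, which held 38.3% of the set, fell on its 61 Prg4-zero cells. Those cells held 2 UMIs of Lcn2, 8 of Il11, 33 of Cxcl14 and 18 of Kera, so the weighted ratios of these genes rest on few UMIs. Lcn2, Il11 and Cxcl14 had log2 ratios of 5.11, 3.11 and 2.62, against 4.89, 3.35 and 2.09 without weights. Kera and Thbs4 were at 2.53 and 1.80, against 5.27 and 3.25. Scx was at 0.38, against 2.49, and Tnmd at -0.49, against 2.39 without weights. Fmod, Abi3bp and Ereg fell under 2-fold too, at 0.98, 0.88 and 0.76. Of the lower genes Plac8 and Tagln stayed at -2.40 and -2.05, while Cxcl10, Sfrp1 and Col2a1 came to -0.91, -0.76 and -0.54. With the weights 15 of the 20 named higher genes were at least 2-fold higher and 12 of the 15 named lower genes at least 2-fold lower.

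Cells richer in tendon genes were then left out, by removing from both sets every cell with a UMI of Scx, Tnmd or Kera after thinning. The 365 Prg4-high cells that remained had 96 genes at least 2-fold higher (1.27%) and 142 lower (1.87%) than the 4532 Prg4-zero cells that remained. Of the 87 higher genes 69 were still higher, of the 20 named ones 19, and of the 15 named lower genes all 15. Thbs4 was at 1201 against 194 CPM in these cells, Lcn2 at 68.0 against 2.53 CPM, Timp1 at 4128 against 1142 CPM and Tagln at 152 against 609 CPM. The thinned counts did not remove tendon expression, since at full depth the 365 cells still held 168 UMIs of Scx, 166 of Tnmd and 46 of Kera, with log2 ratios of 1.35, 1.18 and 2.49 over the Prg4-zero cells that remained. These counts therefore describe members low in the 3 genes and not members without them.

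Between the members themselves, Il11 was lower where Scx, Tnmd and Kera were found. Il11 was at 397 CPM in the 365 Prg4-high cells with none of the 3 tendon genes and 68.8 CPM in the 153 cells with at least 2, a log2 ratio of -2.51. Inhba was at 918 and 328 CPM, Ank at 111 and 46.2 CPM and Anxa8 at 56.2 and 29.5 CPM in these cells. Fmod, Serpinb1a and Abi3bp went the other way, at 119 and 623, 51.3 and 273 and 173 and 564 CPM. Of the thinned Prg4-high cells 173 had Il11 and 202 had Tnmd, and 11 had both, where the product of the shares is 51.7 cells. Il11 was found together with Scx in 24 cells (product 48.1), with Kera in 16 (product 27.6) and with Thbs4 in 115 (product 131.8), so the cells with Il11 were not without tendon genes. Lcn2 was found in 98 and Slpi in 203 cells, and 74 had both, where the product is 29.4. All 108 cells with Kera had Thbs4, which 515 of the 676 had. These pairs come from 1 library and share its depth.

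High levels of other lineage genes were read against Prg4 at the same threshold of 10 per 10000. Of 23 Ibsp-high cells none was Prg4-high (exact interval up to 14.8%), and of 79 Col2a1-high cells 3 were (3.8%, 0.790 to 10.7). Of 242 Tnmd-high cells 47 were (19.4%, 14.6 to 25), and of 4600 Acta2-high cells 119 were (2.59%, 2.15 to 3.09), against 6.24% of all cells. Of 141 Il11-high cells 54 were (38.3%, 30.2 to 46.9), and of 33 Lcn2-high cells 22 (66.7%, 48.2 to 82.0). Tnmd, Il11, Lcn2 and Acta2 were chosen for their ratios in these same cells, and Col2a1 is among the named lower genes. The shares of these 5 genes thus only restate that choice. The intervals for Ibsp and Col2a1 include the share of all cells.

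Cells past the same threshold were present in every library. At d0 48 of 918 cells within the limits were Prg4-high (5.23%, 3.88 to 6.87), at d3 post-fracture 260 of 4907 (5.30%, 4.69 to 5.96), and in the library labelled d5 post-fracture 307 of 5744 (5.34%, 4.78 to 5.96). In the library labelled d3 post-polytrauma 18 of 1414 were (1.27%, 0.756 to 2.00), and 15 of those 18 had a barcode that d5 post-polytrauma also held. Without shared barcodes 47 cells at d0 (5.26%), 253 at d3 post-fracture (5.28%), 294 in the library labelled d5 post-fracture (5.33%) and 3 in that labelled d3 post-polytrauma (0.544%) were Prg4-high. After thinning to 5000 UMIs the shares were 6.32% at d0, 7.76% at d3 post-fracture, 6.55% in the library labelled d5 post-fracture, 1.06% in that labelled d3 post-polytrauma and 7.39% at d5 post-polytrauma. The share of d5 post-polytrauma was above that of d3 post-fracture before thinning and below it after, and both differences lie within overlapping intervals. Median depth was 5846 UMIs at d0, 19272 at d3 post-fracture, 16361 and 35911 in the libraries labelled d5 post-fracture and d3 post-polytrauma, and 16761 at d5 post-polytrauma, and at d0 the limit of 5000 UMIs left 918 of 5367 retained cells.

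**Figure D4:**
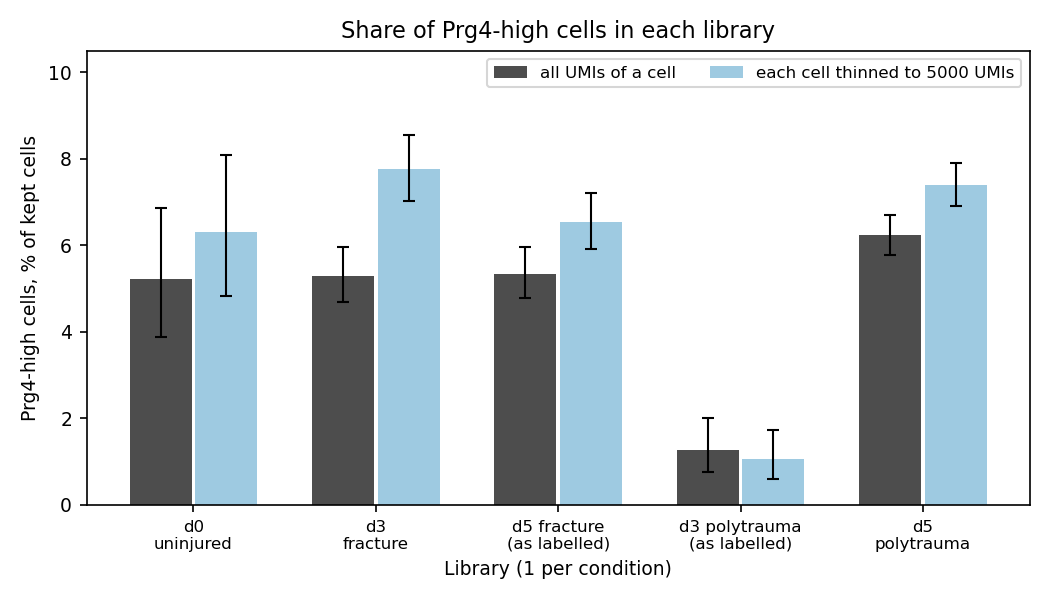
Percent of cells within the limits that were Prg4-high in each of the 5 libraries, with exact 95% intervals that cover counting error only. Dark bars use all UMIs of a cell and light bars use each cell thinned to 5000 UMIs. The other 4 libraries stand between 5.23 and 7.76% and the library labelled d3 post-polytrauma stands at 1.27 and 1.06%.

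The 3 other libraries with at least 20 Prg4-high cells gave values that the rule had not used. At d3 post-fracture all 20 named higher genes had a ratio above 0, where 49.2% of measured genes did, and 12 were at least 2-fold higher, where 0.898% of measured genes were. In the library labelled d5 post-fracture all 20 were again above 0 (46.5% of measured genes) and 14 at least 2-fold higher (1.54%). At d0, with 48 cells, 12 of 20 were above 0 (47.6%) and 7 at least 2-fold higher (5.46%). Without shared barcodes these counts were the same, apart from 8 in place of 7 at d0. Of the 15 lower genes 14, 13 and 13 were below 0 in these libraries, where 50.8, 53.5 and 52.4% of measured genes were, and 6, 6 and 8 were at least 2-fold lower, where 0.465, 0.896 and 11.4% were. Genes of the whole comparison carried over in part. Of the 87 higher genes 74, 74 and 65 were measured in these libraries, and 29, 36 and 18 were at least 2-fold higher there. Of the 108 lower genes 77, 78 and 83 were measured, and 20, 23 and 31 were at least 2-fold lower.

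Tendon genes had large ratios at d3 post-fracture and in the library labelled d5 post-fracture too. In the library labelled d5 post-fracture the largest ratio among genes of at least 50 CPM was that of Mmp13, a collagenase, at 111 against 0.617 CPM and a log2 ratio of 6.11, where it was 0.71 at d5 post-polytrauma. Kera was at 58.1 against 1.17 CPM at d3 post-fracture and 51.3 against 0.993 CPM in the library labelled d5 post-fracture, with log2 ratios of 4.77 and 4.71. Thbs4 was at 942 against 85.3 and 1331 against 64.2 CPM, and Tnmd at 193 against 18.7 and 161 against 8.72 CPM. At d0 Kera was at 932 against 186 CPM, Thbs4 at 1625 against 397 CPM and Tnmd at 1540 against 434 CPM, so the Prg4-zero cells held these genes at a higher level there than in the injured libraries. The tendon and tendon sheath list had medians of 2.05 at d0, 3.20 at d3 post-fracture and 3.68 in the library labelled d5 post-fracture, against 2.37 at d5 post-polytrauma. Tendon genes thus stood with Prg4 in each of the 4 libraries read.

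Il11, Lcn2 and Tagln differed between libraries in the size of their ratios. Il11 was at 160 against 98.6 CPM at d3 post-fracture, 358 against 195 CPM in the library labelled d5 post-fracture and 6.11 against 7.35 CPM at d0, with log2 ratios of 0.69, 0.87 and -0.23 against 3.35 at d5 post-polytrauma. Beside d3 post-fracture and the library labelled d5 post-fracture, d5 post-polytrauma had less Il11 in its Prg4-zero cells (27.2 CPM), and beside d0 it had more in its Prg4-high cells (286 CPM). Lcn2 was at 28.0 against 6.55 and 111 against 13.7 CPM at d3 post-fracture and in the library labelled d5 post-fracture. Tagln had log2 ratios of -3.34 at d0, -1.17 at d3 post-fracture and 0.43 in the library labelled d5 post-fracture, where Tagln was at 62.5 against 46.3 CPM. The contractile list had 7 of 10 genes at least 2-fold lower at d0 (median -3.16), 5 of 10 at d3 post-fracture (median -0.99) and 0 of 8 in the library labelled d5 post-fracture (median -0.01). None of these differences between libraries was tested. Between d5 post-polytrauma and the others, sex, library and condition cannot be told apart. At d0, d3 post-fracture and in the library labelled d5 post-fracture, 97.6, 97.6 and 96.9% of cells had Xist alone. Among those libraries, library and condition cannot be told apart.

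**Figure D5:**
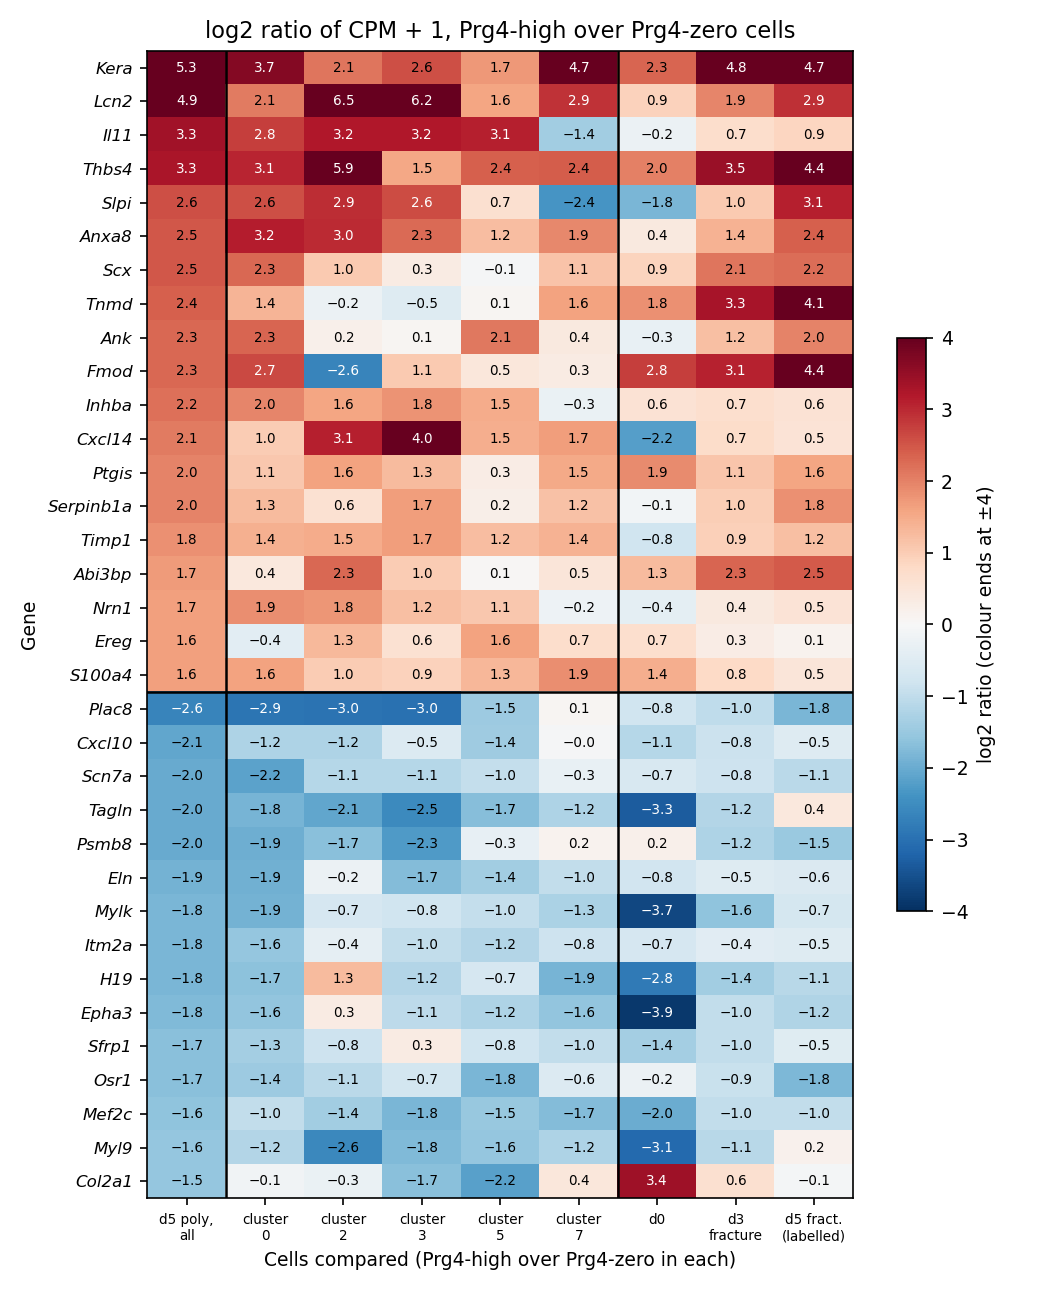
log2 ratios (1 CPM added) of Prg4-high over Prg4-zero cells for 19 of the 20 higher genes and the 15 lower genes, printed in each cell and coloured from blue (lower) to red (higher), with colour ending at 4 and -4. The first column is all of d5 post-polytrauma, the next 5 are its clusters, and the last 3 are d0, d3 post-fracture and the library labelled d5 post-fracture. Timp1 lies between 1.23 and 1.66 in the clusters, while Tnmd is -0.52 in the tenocyte-like cluster 3 and 4.06 in the last library.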

How the data were processed

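Cells of skeletal muscle were sorted for GFP, and libraries were made with the 10x Genomics Chromium 3′ kit, 2 mice pooled per library. The authors deposited counts, 1 matrix of UMI counts per library with 31055 genes, made with Cell Ranger from reads aligned to mm10, and the matrix headers name version 3.1.0. No further normalization was applied to them. The study then used Seurat 3.1.2, whose cell annotation was not used here. All matrix columns were used.

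Members and gene lists (37 lists) were chosen with earlier results of these data known. Groups were taken from the sample labels, and the conditions have 1 library each, so no test was run. Python 3.11.15, numpy 2.4.6, scipy 1.17.1, pandas 2.3.3 and scanpy 1.11.5 were used, and the comparison was checked on simulated data. UMIs were summed per set and scaled to CPM, so a value weights deep cells more. Genes with a mean of at least 10 CPM over both sets were compared, and a ratio of 2-fold after 1 CPM was added was called. Intervals are exact (95%, Poisson for CPM and Clopper-Pearson for shares). PCR copies were removed by the UMIs. Dividing cells and tendon gene classes used cells thinned to 5000 UMIs. Shares of cells with a UMI used thinned cells where thinning is named and all UMIs of a cell elsewhere.

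The named genes were the 20 highest and 15 lowest ratios among genes of at least 50 CPM in the set where they were higher, with list members added. Of the 20, 1 is counted but not reported here by name. Clusters came from 2000 variable genes without Prg4, 20 principal components, 15 neighbours and Leiden clustering at a resolution of 0.5. A cluster was named when at least 3 markers of 1 list were each found in at least 10% of its cells and at least 2-fold above the other cells, and markers of that list were among its leading genes. Doublets were scored with Scrublet, whose automatic threshold called 0 of 12615 cells, so the 1273 highest scores, at a rate of 10.1% for this number of cells, were left out as an alternative. Positions are from GENCODE M21 on GRCm38, where 31011 of the 31055 identifiers were found. In d5 post-polytrauma the UMIs of a set come to 14116805 for Prg4-high and 87002146 for Prg4-zero cells, and a count of 0 in the former allows up to 0.261 CPM. Alternatives changed the threshold, the depth limit, the weights of cells and clusters, the comparison cells, the scaling, the added CPM, the minimum CPM and the resolution.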

Additional observations from a re-analysis of the deposited data

Results flagged for a closer look

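Named genes past 2-fold at d0 with a ratio of opposite sign were singled out, and none of these differences was tested. At d0 12 of the 20 higher genes had a ratio above 0. Timp1, not past 2-fold, was at 79.4 against 138 CPM, from 26 and 546 UMIs, a log2 ratio of -0.79 against 1.84 at d5 post-polytrauma. Cxcl14 was at 45.8 CPM in the 48 Prg4-high cells and 216 CPM in the 645 Prg4-zero cells of d0, a log2 ratio of -2.21 against 2.09 at d5 post-polytrauma. Col2a1 was at 55.0 against 4.31 CPM, from 18 and 17 UMIs, a log2 ratio of 3.40 against -1.54. Slpi had a log2 ratio of -1.82 at d0 against 2.57 at d5 post-polytrauma, from 0 UMIs in Prg4-high and 10 UMIs in Prg4-zero cells of d0, which is at the limit of what these cells can show.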

How the results depend on the processing

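With 1 library per condition no library could be left out and no replicate error exists. No paired analysis was possible because each condition has 1 library. The comparison by sex was not run, since the library holds cells of 1 sex. The counts of higher and lower genes (87 and 108) became 56 and 68 at a threshold of 5 per 10000, 57 and 70 against all other cells, 49 and 47 with Prg4-zero cells weighted by cluster, 201 and 293 at a minimum of 1 CPM and 46 and 33 at 50 CPM. The set held 1355 cells (12.5%) at a threshold of 5 and 283 (2.61%) at 20, since the level is continuous. The tenocyte-like cluster held 127 members at a resolution of 0.3. Tnmd reversed to a log2 ratio of -0.49 with the cluster weights. Within the tenocyte-like cluster, which held 38.3% of the set, its log2 ratio was -0.52, at 707 CPM in the 61 Prg4-zero cells. The cause of the reversal was not tested. Leaving out cells with tendon genes (96 and 142) or the tenocyte-like cluster (89 and 140) was chosen after seeing the data, and without that cluster Tnmd was at 0.83 and Abi3bp at 0.43. Of the values of named genes under all alternatives, 478 kept their side of 2-fold, 11 kept their direction only and 1 reversed. Precision is limited by 676 cells of 1 library, and by 48 cells at a median of 5948.5 UMIs at d0.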
